A study of Mus musculus with 6 samples.

Results

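The immediate early genes Fos, Fosb, Jun, Junb, Egr1, Atf3, Ier2 and Ier3 and the heat shock genes Hspa1a and Hspa1b were followed through 6 single-cell RNA sequencing libraries as a readout of cell stress and tissue dissociation. These 10 genes were taken by name from the 31053 genes listed for each library, by a rule with no threshold on their values but with earlier results of these data known. Each was listed under its own symbol in all 6 libraries, and all 10 passed the minimum of 50 transcript counts in every comparison of whole libraries.

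Immediate early genes are transcribed within minutes of a stimulus such as a growth factor, an inflammatory signal or mechanical injury, from factors that are already present in the cell and need no new protein. Fos, Fosb, Jun and Junb encode subunits of the AP-1 transcription factor, Egr1 and Atf3 encode further transcription factors, and Ier2 and Ier3 encode short-lived response proteins. Hspa1a and Hspa1b encode the inducible form of the HSP70 chaperone, which binds unfolded proteins and is switched on by heat shock factor 1. Enzymatic digestion of solid tissue is known to induce both groups before cells are captured, so their level in a freshly dissociated sample reflects the living tissue and the handling together.

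Cultures of dendritic cells (DCs) grown from mouse bone marrow and samples of skin wounds, 3 of each, were captured in droplets, with 1 library per condition. The untreated DCs received no agent, the VD3 stimulated DCs received vitamin D3 (1e-06 M) on day 7 and were kept in it for 24 h, and the Ndrg2-KO DCs were nucleofected with Cas9 protein and guides against Ndrg2, a stress-responsive gene. The untreated DCs were not nucleofected, and a culture given control guides was not analysed here, so that in the cultures an effect of nucleofection and one of the Ndrg2 guides cannot be told apart. Excisional wounds of C57BL6 mice, 5 per group, carried hydrogels seeded with control DCs, hydrogels seeded with Ndrg2-KO DCs or blank hydrogels, and were explanted on day 10. The labels call the control DCs of the wounds untreated, whereas the methods describe nucleofection with non-targeting guides, and the mice of a group were pooled with no counts that would separate them. The methods describe sequencing of the wound tissue, whereas the series text speaks of sorted GFP+ cells and of parabiosis, the joining of the circulation of mice. Which wound cells were captured was therefore not settled here, though fibroblast-like and keratinocyte-like cells were among them, and the transferred DCs cannot be told from those of the host. The labels name enzymatic digestion for every library, and its length, its temperature and any block of transcription are not given in the sources used here.

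With 1 library per condition there was no replicate error and no test between conditions. Levels are given as counts of unique molecular identifiers (UMIs, 1 per captured transcript molecule), summed over cells and scaled so that all genes of those cells have the same total in every sample (CPM), with exact 95% Poisson intervals, and ratios carry exact conditional binomial intervals. These intervals cover counting error only. A gene was counted as higher or lower where its CPM differed by 2-fold or more, and the share of all genes past the same fold stands beside each count of members. The UMIs come from the 3′ ends of transcripts without correction for length, so that values are compared between samples for each gene and not between genes.

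The cultures gave 7257 to 8825 cells per library with medians of 12089 to 16316 UMIs per cell, and the wounds gave 1948 to 5681 cells with medians of 4415 to 10795 UMIs. Median mitochondrial shares ran from 5.30% to 6.60% in the cultures and from 0.913% to 1.80% in the wounds. Between 1 and 19 cell barcodes were shared by any pair of libraries. Ndrg2 itself stood at 4.62 CPM in the untreated DCs, 1.42 CPM in the VD3 stimulated DCs and 0.884 CPM in the Ndrg2-KO DCs, and deletions made by Cas9 need not remove the counted 3′ end. Cells that carried mature DC markers made up 37.4%, 39.5% and 26.5% of the untreated, VD3 stimulated and Ndrg2-KO cultures, so that a large part of each culture was other cells. Neutrophil-like cells numbered 930, 1105 and 45 in those cultures, and they held 23.5%, 50.9% and 45.7% of the cells in control DC, Ndrg2-KO DC and blank hydrogel wounds. Gm42418, a transcript that overlaps ribosomal RNA, took 8.61% to 14.1% of wound UMIs and under 0.1% of culture UMIs.

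The 10 genes are short. All had at most 4 exons in the annotation (GENCODE M21), as had 34.4% of 21901 protein-coding genes, and 5 had a single exon, as had 6.82% of those genes. Their median span was 3078 bases against 15780 bases.

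Hspa1a and Hspa1b are neighbouring single-exon genes on the minus strand of chromosome 17 of the GRCm38 build, at chr17:34969190-34972156 and chr17:34956436-34959238. Of the 91-base windows of their transcripts, 49.1% of those in Hspa1a also occur in Hspa1b, and none of the 410 windows in the last 500 bases does, so that reads near the 3′ end can be assigned to 1 gene and reads farther upstream are uncertain. Their promoters are shown because both genes were lower together in blank against control DC wounds, as described further on. The 250 bases before the start of each gene (RefSeq, GRCm38.p6, minus strand of chr17:34972157-34972406 and chr17:34959239-34959488) were identical at 247 positions, with the substitutions C207T, T204C and T2G, where the number counts bases before the start and the first letter is that of Hspa1a. Capitals mark a dyad of the heat shock element (GAANNTTC), 104 bases before the start in both.
Hspa1a: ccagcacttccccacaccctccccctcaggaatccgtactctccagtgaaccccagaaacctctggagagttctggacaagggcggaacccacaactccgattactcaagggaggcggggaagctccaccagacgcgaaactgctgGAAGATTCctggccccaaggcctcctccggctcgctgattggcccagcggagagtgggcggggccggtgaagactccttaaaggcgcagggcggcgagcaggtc
Hspa1b: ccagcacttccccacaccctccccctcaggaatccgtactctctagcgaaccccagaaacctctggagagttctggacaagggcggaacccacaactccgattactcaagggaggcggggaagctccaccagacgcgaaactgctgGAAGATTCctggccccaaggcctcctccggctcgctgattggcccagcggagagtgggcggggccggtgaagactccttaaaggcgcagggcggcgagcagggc

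The Fos promoter is shown as the example of an AP-1 gene. Its window (RefSeq, GRCm38.p6, plus strand, chr12:85473640-85473889) held the core of the cAMP response element (TGACG) 129 and 66 bases before the start and a TATA box (TATAAA) 33 bases before it, in capitals.
Fos: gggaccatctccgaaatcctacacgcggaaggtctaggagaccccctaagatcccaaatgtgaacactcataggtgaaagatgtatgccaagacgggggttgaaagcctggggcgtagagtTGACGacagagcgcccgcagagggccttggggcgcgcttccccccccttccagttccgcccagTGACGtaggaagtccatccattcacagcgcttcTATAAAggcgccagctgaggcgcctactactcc

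Of the 10 genes, 8 had a window in the promoter table, and Egr1 and Ier2 did not. On either strand, GAANNTTC was found in 6.69% of all 32851 windows and in those of Hspa1a, Hspa1b and Jun, where it lay 128 bases before the start. TGACG was found in 17.8% of all windows and in those of Fos, Fosb, Junb and Atf3. TATAAA was found in 12.4% of all windows and, among the members, in that of Fos. CCAAT was found in 33.9% of all windows and in 5 of the 8, and TTCNNGAA, which shares its units with GAANNTTC and can overlap it, in 7.17% of all windows, and the CArG box of serum response factor, in 1.47%, were in none of the 8. A match is a run of letters and not evidence of binding.

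**Figure D1:**
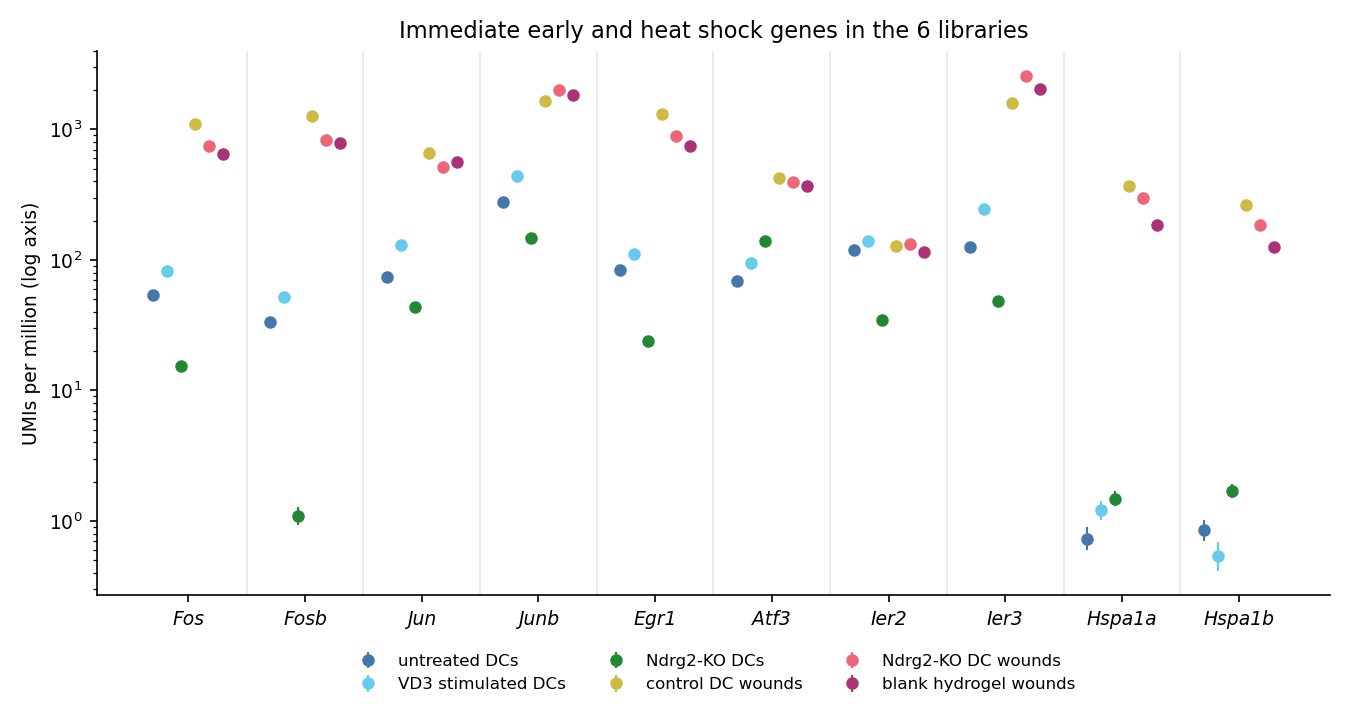
Level of each of the 10 genes in the 6 libraries, in CPM on a log axis, with exact 95% Poisson intervals as bars. The wound libraries lie above the cultures for every gene except Ier2, and Hspa1a and Hspa1b are near 1 CPM in the cultures and between 126 and 370 CPM in the wounds.

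The wounds held far more of these transcripts than the cultures. The 8 immediate early genes summed to 837 CPM in the untreated, to 1296 CPM in the VD3 stimulated and to 455 CPM in the Ndrg2-KO culture. In control DC, Ndrg2-KO DC and blank hydrogel wounds the same sum was 8173, 8107 and 7131 CPM. The 2 heat shock genes together stood at 1.58, 1.74 and 3.18 CPM in the cultures and at 636, 481 and 310 CPM in the wounds. Wound and culture libraries differed at once in tissue, cell types, handling and version of the counting software, and these cannot be told apart.

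Ier2 departed from that pattern. Its level in the wounds, at 127, 133 and 116 CPM in control DC, Ndrg2-KO DC and blank hydrogel wounds, overlapped the range of the cultures, which held 118 CPM (untreated), 140 CPM (VD3 stimulated) and 34.9 CPM (Ndrg2-KO). Every other immediate early gene had its lowest wound level above its highest culture level.

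At an equal depth of 1000 UMIs per cell, at least 1 transcript of an immediate early gene was found in 52.4% of untreated, in 63.0% of VD3 stimulated and in 36.5% of Ndrg2-KO DCs. In the wounds the share was 92.5%, 95.1% and 94.9% of control DC, Ndrg2-KO DC and blank hydrogel cells. Without the equal depth the shares were 92.6% to 96.5% in the cultures and 98.2% to 99.0% in the wounds, which shows little beyond the depth of the cells. A heat shock transcript was found in 0.0695% to 0.315% of culture cells at equal depth and in 21.4%, 13.9% and 11.95% of cells from control DC, Ndrg2-KO DC and blank hydrogel wounds. Without the equal depth those shares were 1.63% to 4.78% and 34.3% to 50.3%.

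In the cultures, Fos, Fosb, Jun and Junb, of the AP-1 transcription factor genes, were highest in the VD3 stimulated and lowest in the Ndrg2-KO library. Fos, whose product dimerises with Jun proteins, had 54.3 CPM in the untreated, 82.6 CPM in the VD3 stimulated and 15.3 CPM in the Ndrg2-KO culture. Fosb, a close relative of Fos, stood at 33.4, 52.1 and 1.09 CPM in the same order, the last from 156 UMIs over all 7969 cells. This was the widest gap of any member. Jun, the AP-1 partner of Fos, stood at 74.2, 129 and 43.7 CPM, and Junb, which can oppose Jun at some targets, stood at 278, 437 and 147 CPM. These 4 genes thus kept 1 order of the 3 cultures. Other AP-1 genes did not keep it, since Jund (339, 471 and 418 CPM) and Fosl2 (30.8, 37.6 and 31.4 CPM) were lowest in the untreated and Fosl1 (0.717, 0.326 and 0.780 CPM) in the VD3 stimulated culture.

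Egr1, a zinc finger factor induced through the serum response pathway, had 83.3 CPM in the untreated, 112 CPM in the VD3 stimulated and 24.04 CPM in the Ndrg2-KO culture. Ier2 and Ier3 followed the same order, Ier3 with 127, 248 and 48.2 CPM. Atf3, a stress-induced repressor of inflammatory genes, did not, with 69.1 CPM in the untreated, 94.99 CPM in the VD3 stimulated and 141 CPM in the Ndrg2-KO culture. It was the 1 immediate early gene whose highest culture level was in the Ndrg2-KO library.

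The first comparison asks what VD3 left in the cultures. None of the 10 genes was 2-fold or more apart between VD3 stimulated and untreated DCs, where 11.6% of the 13113 genes tested were so in either direction. All 8 immediate early genes lay above 0 on the log2 scale, from 0.25 for Ier2 to 0.97 (95% interval 0.94 to 0.99) for Ier3, with a median of 0.62 over the 10 genes against -0.08 over all genes tested. Ier3 passed 2-fold in cells with under 5% mitochondrial UMIs (log2 ratio 1.13), when totals left out mitochondrial and ribosomal protein genes (1.05) and under median-ratio size factors (1.04). Hspa1a and Hspa1b went opposite ways, at log2 ratios of 0.72 (0.33 to 1.11) and -0.64 (-1.11 to -0.19), from 140 against 97 and 63 against 112 UMIs.

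The next comparison used the same untreated library. In the Ndrg2-KO culture 5 immediate early genes were lower by 2-fold or more, beside 9.28% of the 13329 genes tested. Fosb had a log2 ratio of -4.94 (-5.18 to -4.71), a 30.7-fold lower level, from 156 against 4427 UMIs. Fos was 3.55-fold, Egr1 3.46-fold, Ier2 3.39-fold and Ier3 2.63-fold lower. Jun and Junb were 1.70-fold and 1.89-fold lower, short of the threshold. These 5 genes stayed past 2-fold under all 9 alternatives tried, the nearest to it being Ier3 at a log2 ratio of -1.08 without neutrophil-like cells.

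Atf3, Hspa1a and Hspa1b were higher by 2-fold or more in the Ndrg2-KO culture, beside 10.2% of all genes tested. Atf3 was 2.03-fold higher (log2 ratio 1.02, 0.99 to 1.06), Hspa1a 2.03-fold (213 against 97 UMIs) and Hspa1b 2.01-fold (244 against 112 UMIs). All 3 fell short of 2-fold in cells with under 5% mitochondrial UMIs, with totals that left out mitochondrial and ribosomal protein genes, and without neutrophil-like cells, at log2 ratios of 0.11 to 0.999. The heat shock transcripts were also too few for a claim about cells, since 0.315% of Ndrg2-KO cells held 1 at 1000 UMIs.

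Set beside the VD3 stimulated culture, the Ndrg2-KO culture was lower by 2-fold or more in 7 immediate early genes, where 9.21% of the 13235 genes tested were lower. Fosb was 48.0-fold, Fos 5.39-fold, Ier3 5.14-fold, Egr1 4.65-fold, Ier2 4.02-fold, Junb 2.97-fold and Jun 2.96-fold lower. Hspa1b was the 1 member higher by 2-fold or more, at a log2 ratio of 1.65 (1.25 to 2.07), where 13.0% of genes were higher. Each library enters 2 of these 3 comparisons, so that none of them is independent of the others.

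**Figure D2:**
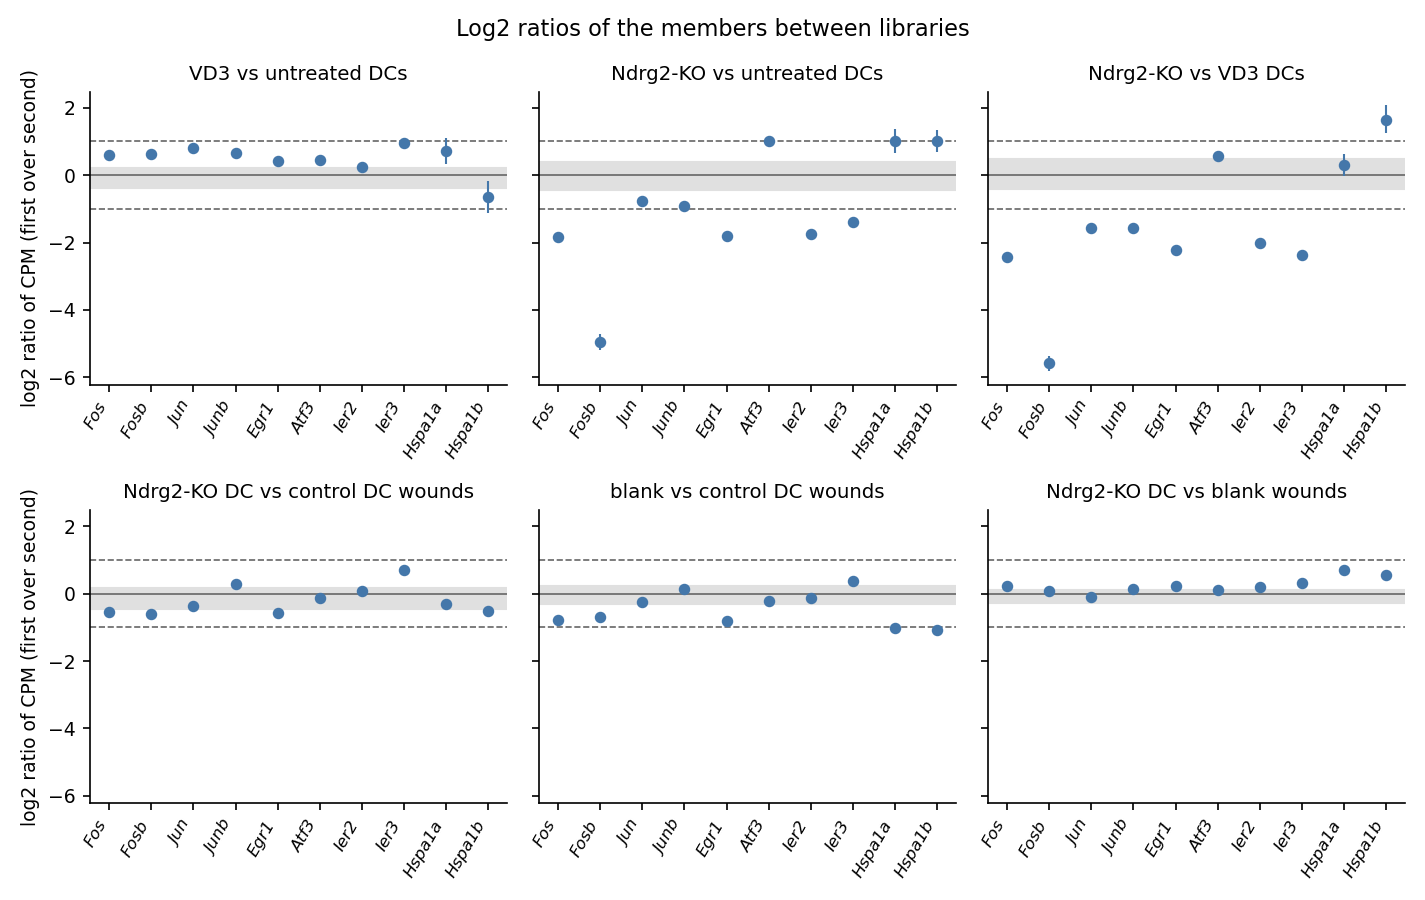
Log2 ratio of CPM for each of the 10 genes in the 6 comparisons of libraries, with exact conditional binomial 95% intervals, which cover counting error only. The dashed lines mark 2-fold. Fosb in the Ndrg2-KO culture lies farthest from 0, and in the wounds only Hspa1a and Hspa1b in blank against control DC wounds lie beyond 2-fold.

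The clusters of cells showed where the culture signal lay. Clusters were built without the immediate early and heat shock genes among the variable genes. Neutrophil-like cells (Csf3r, Ngp and Ltf among their leading genes) had the highest sum of the 8 immediate early genes, at 2318 CPM in the untreated and 3550 CPM in the VD3 stimulated culture. Cells with type 1 conventional DC markers followed with 1134 and 2354 CPM, and basophil-like cells had 976 and 1397 CPM. Mature DC-like cells had 456 CPM in the untreated, 717 CPM in the VD3 stimulated and 465 CPM in the Ndrg2-KO culture. A cluster of Ndrg2-KO cells with premature DC markers (Arg1, Mamdc2 and Fabp4 leading) had 483 CPM.

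**Figure D3:**
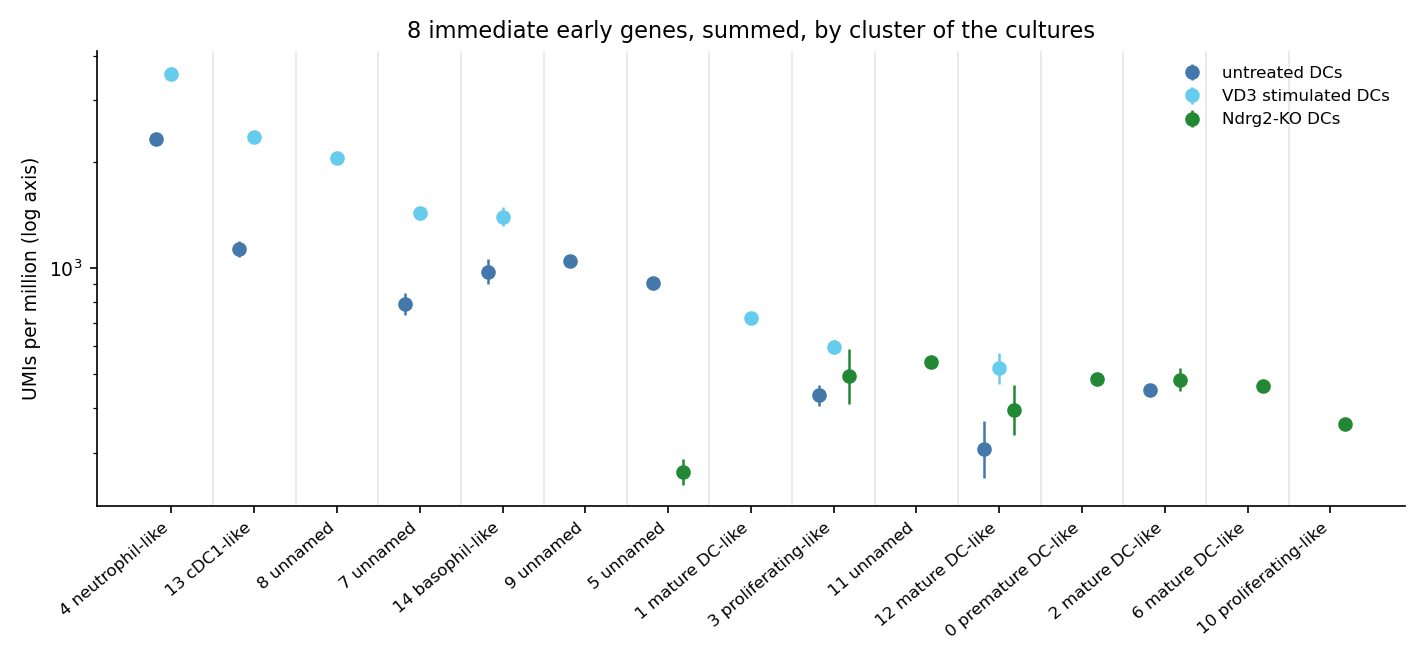
Summed level of the 8 immediate early genes in each culture cluster of at least 50 cells, in CPM with exact 95% Poisson intervals, coloured by library. Neutrophil-like cells of the VD3 stimulated and untreated cultures stand at 3550 and 2318 CPM, and the mature DC-like clusters lie between 307 and 719 CPM.

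Neutrophil-like cells held 9.91% and 10.1% of the immediate early UMIs in the untreated and VD3 stimulated cultures from 3.58% and 3.69% of the UMIs, and 0.197% in the Ndrg2-KO culture. With these cells left out, the sum over the 8 genes was 782, 1210 and 455 CPM in the 3 cultures. Ier3, an inhibitor of cell death signals in myeloid cells, was high in them, with 813 and 1430 CPM in neutrophil-like cells of the untreated and VD3 stimulated cultures. Clusters left unnamed, among them one led by Ms4a3, Elane and Prtn3, held 70.4% of immediate early UMIs from 62.1% of all UMIs in the untreated culture, and 61.0% from 48.0% in the VD3 stimulated culture.

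Within mature DC-like cells, the sum of the 8 genes hardly differed between Ndrg2-KO and untreated DCs, at a log2 ratio of 0.03 (-0.01 to 0.06), while its members went opposite ways. Fosb had 2 against 316 UMIs (log2 ratio -6.59, -9.64 to -4.73), Egr1 35 against 425 UMIs and Fos 33 against 182 UMIs. Ier2 was 2.04-fold lower, and 3.77% of the 11233 genes tested were lower by 2-fold or more. Fosb, Egr1 and Fos each had fewer than 50 UMIs in Ndrg2-KO cells and passed that minimum through the untreated cells. No count of members is therefore set beside the share. Atf3 alone was higher, at 188 against 78.2 CPM, beside 10.5% of genes. In each comparison with the untreated culture 9 members reached 50 UMIs in this class over both libraries together, and 8 in that of Ndrg2-KO with VD3 stimulated DCs.

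Different clusters held most of this class in each library: 2599 of the untreated cells in one, 3293 of the VD3 stimulated cells in another and 1827 of the Ndrg2-KO cells in yet another. In the cluster of the untreated cells, which also held 163 Ndrg2-KO cells, Atf3 had 76.9 CPM in untreated and 35.8 CPM (26.8 to 46.8) in Ndrg2-KO cells, the reverse of the class. Fosb had no UMI there in Ndrg2-KO cells, which allows up to 2.49 CPM, against 7.57 CPM in untreated cells. The difference in Fosb was therefore also seen within 1 cluster, and that in Atf3 was not.

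Between VD3 stimulated and untreated mature DC-like cells, Jun (82.5 against 38.3 CPM) and Fos (8.73 against 4.36 CPM) were higher by 2-fold or more, beside 3.68% of the 11463 genes tested. Between Ndrg2-KO and VD3 stimulated mature DC-like cells, Fosb, Egr1, Fos and Junb were lower by 2-fold or more. Fosb, Egr1 and Fos were again below the minimum count in Ndrg2-KO cells. No count of members is therefore set beside the share of lower genes, 4.09% of the 11363 tested. Fosb again was widest, at 2 against 606 UMIs (log2 ratio -7.26, -10.31 to -5.40), and Junb lay at the threshold with 197 against 395 CPM. In the comparison of VD3 with untreated cells, Ier2 was the 1 immediate early gene below 0, at a log2 ratio of -0.47.

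The wound libraries address seeded DCs and their Ndrg2 knockout, and each of them again enters 2 of 3 comparisons. The sum of the 8 immediate early genes differed by a log2 ratio of -0.01 between Ndrg2-KO DC and control DC wounds and by -0.20 between blank and control DC wounds. Fos stood at 1103 CPM in control DC, 751 CPM in Ndrg2-KO DC and 645 CPM in blank hydrogel wounds. Egr1 followed the same order with 1321, 887 and 752 CPM, and Fosb did so with 1274, 835 and 792 CPM. Over all cells these 3 genes were thus highest with control DCs. Fibroblast-like cells, which are high in all 3, held 52.1% of UMIs in control DC wounds against 29.4% and 30.9% in Ndrg2-KO DC and blank hydrogel wounds. Within them, Fos stood at 1385, 1179 and 1054 CPM, Egr1 was highest with control DCs, and Fosb was highest with Ndrg2-KO DCs, at 1842, 1900.3 and 1711 CPM.

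The fibroblast-like class did not hold the same cells in each wound. At a clustering resolution of 1.0, a cluster led by Reg3g, Ngfr and Pgr held 185 cells of the Ndrg2-KO DC, 2 of the control DC and 1 of the blank hydrogel wounds. Its Ndrg2-KO DC cells had 2527 CPM of Fosb and 1551 CPM of Fos. Without this cluster, left out after the data were seen, Fosb stood at 1844, 1584 and 1710.0 CPM and Fos at 1382, 992 and 1051 CPM in control DC, Ndrg2-KO DC and blank hydrogel wounds. Both were then highest with control DCs and lowest with Ndrg2-KO DCs, so the place of the Ndrg2-KO DC wounds in the order turned on this cluster.

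Ier3 and Junb had the opposite order at its upper end. Ier3 stood at 1594 CPM in control DC, 2577 CPM in Ndrg2-KO DC and 2059 CPM in blank hydrogel wounds, and Junb at 1662, 2010 and 1838 CPM. Jun, with 663, 519.9 and 562 CPM, and Atf3, with 428, 394 and 367 CPM, were highest in control DC wounds. Neutrophil-like cells, in which Ier3 and Junb were high and Fos and Fosb low, made up 23.5%, 50.9% and 45.7% of cells in the same order. Without them, the log2 ratio of Ier3 against control DC wounds was 0.66 in place of 0.69 for Ndrg2-KO DC wounds and 0.19 in place of 0.37 for blank hydrogel wounds. That of Junb was 0.08 in place of 0.27 and -0.01 in place of 0.15. The part of the other cell classes in these differences was not tested.

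None of the 10 genes was 2-fold or more apart between Ndrg2-KO DC and control DC wounds, beside 10.6% of the 13358 genes tested in either direction. The log2 ratios ran from -0.61 for Fosb to 0.69 for Ier3. Between Ndrg2-KO DC and blank hydrogel wounds none was past 2-fold either, beside 3.76% of 13449 genes, with log2 ratios from -0.11 for Jun to 0.69 for Hspa1a. Between blank and control DC wounds, Hspa1a and Hspa1b were lower by 2-fold or more, beside 3.89% of 13137 genes.

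Hspa1a stood at 370 CPM (363 to 377) in control DC, 296 CPM (292 to 301) in Ndrg2-KO DC and 184 CPM (179 to 188) in blank hydrogel wounds. Hspa1b stood at 266, 185 and 126 CPM. Both chaperone genes were thus highest in the wounds with control DCs and lowest in those with blank hydrogels. The log2 ratios of blank to control DC wounds were -1.01 (-1.05 to -0.96) for Hspa1a and -1.07 (-1.13 to -1.02) for Hspa1b. They lay close to the threshold, and over all deposited barcodes they were -0.91 and -0.90.

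Macrophage-like cells held more of the heat shock UMIs than any other class in each wound. They had 53.5%, 50.2% and 34.0% of the Hspa1a and Hspa1b UMIs in control DC, Ndrg2-KO DC and blank hydrogel wounds, from 17.4%, 17.2% and 13.8% of all UMIs. Hspa1a had 1144 CPM, 909.5 CPM and 462 CPM in them, and Hspa1b had 809, 496 and 305 CPM. At 1000 UMIs, 53.6%, 48.4% and 34.8% of these cells held a heat shock transcript, and 83.2%, 84.5% and 73.5% did at full depth. Levels and shares at equal depth gave the same order of the 3 wounds.

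In macrophage-like cells, the log2 ratios of blank to control DC wounds were -1.31 (-1.38 to -1.24) for Hspa1a and -1.41 (-1.496 to -1.32) for Hspa1b. These were the 2 members lower by 2-fold or more, beside 0.642% of the 8412 genes tested. The count was 2 or 3 under all 5 alternatives for this class, Egr1 being the next gene at a log2 ratio of -0.92. Both clusters of the class had the same first and last wound. The larger one, led by Fcrls and Cd163, had 1686 CPM in control DC, 1321 CPM in Ndrg2-KO DC and 620.4 CPM in blank hydrogel wounds, and the smaller one, led by Cd209 family genes and Lyve1, had 2609, 1562 and 1429 CPM.

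Between Ndrg2-KO DC and control DC wounds no member was past 2-fold in macrophage-like cells, beside 3.84% of 9146 genes, nor was any between Ndrg2-KO DC and blank hydrogel wounds, beside 2.98% of 9088 genes. Hspa1a came nearest in the latter, at a log2 ratio of 0.98 (0.91 to 1.04), and 1 member passed with more, smaller clusters or without the cells of the highest doublet scores. Hspa1b was 1.63-fold lower in Ndrg2-KO DC than in control DC wounds, with 496 against 809 CPM. The immediate early sum in these cells was 11349, 10757 and 9593 CPM in control DC, Ndrg2-KO DC and blank hydrogel wounds.

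**Figure D4:**
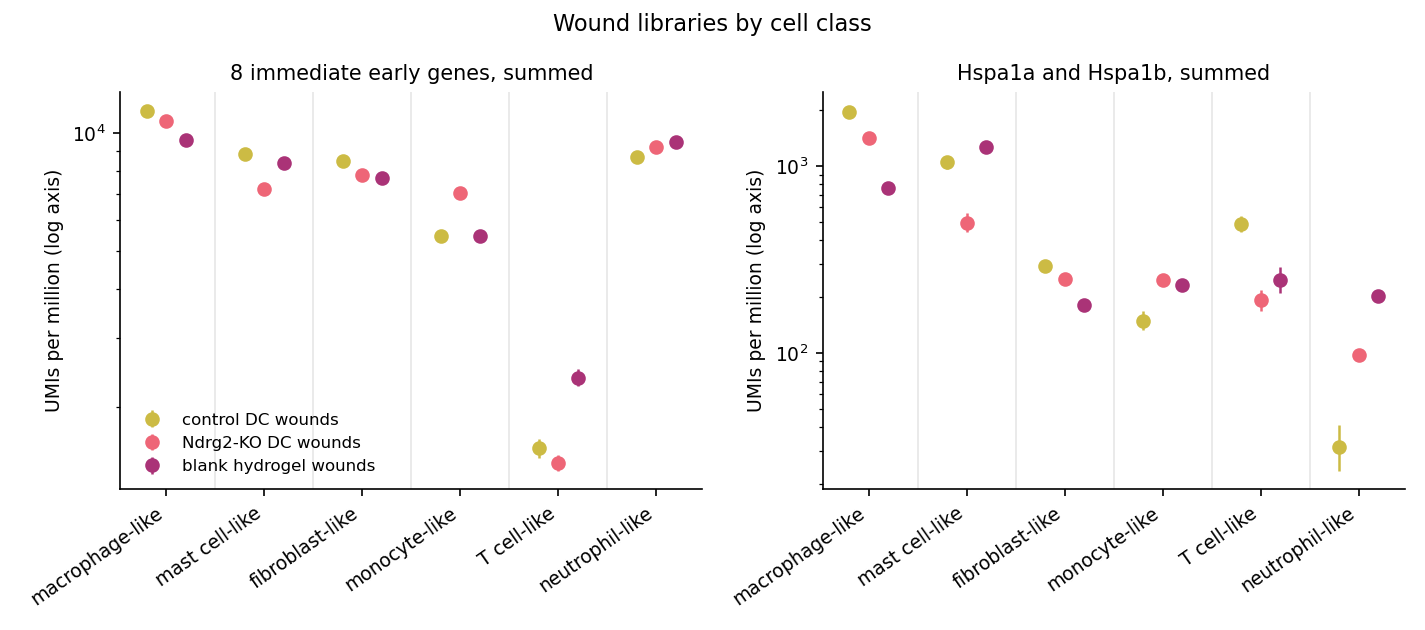
Summed CPM of the 8 immediate early genes and of the 2 heat shock genes in the wound cell classes with at least 50 cells, by library, with exact 95% Poisson intervals. Macrophage-like cells have 1952 CPM of heat shock transcripts in control DC and 767 CPM in blank hydrogel wounds, and T cell-like cells have an immediate early sum of 1434 to 2373 CPM.

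Fibroblast-like cells had fewer heat shock transcripts and no member past 2-fold. Hspa1a had 160 CPM in control DC, 134 CPM in Ndrg2-KO DC and 101 CPM in blank hydrogel wounds, and Hspa1b had 133, 114 and 78.2 CPM. This was the same order as in macrophage-like cells, at less than 2-fold. Without the cluster found almost only in Ndrg2-KO DC wounds, Hspa1a stood at 160, 145 and 99.8 CPM. In either direction 6.29% of 11232 genes were past 2-fold between Ndrg2-KO DC and control DC wounds, 4.11% of 10936 between blank and control DC wounds and 3.37% of 11065 between Ndrg2-KO DC and blank hydrogel wounds. Egr1 had 1747, 1139 and 1314 CPM in this class.

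In neutrophil-like cells the heat shock level differed in the opposite direction, from few cells. Hspa1a had 17.2 CPM in control DC, 59.7 CPM in Ndrg2-KO DC and 136 CPM in blank hydrogel wounds, from 28, 583 and 798 UMIs, and Hspa1b had 14.1, 38.0 and 66.9 CPM. Both were higher by 2-fold or more in Ndrg2-KO DC than in control DC wounds, and in blank than in control DC wounds. In control DC wounds they had 28 and 23 UMIs, below the minimum count, and passed it through the other wound of each comparison. No count of members is therefore set beside the shares of higher genes, 5.61% of 5457 and 7.97% of 5054. Hspa1a was the 1 member lower by 2-fold or more between Ndrg2-KO DC and blank hydrogel wounds, beside 5.82% of 6360 genes. The share of neutrophil-like cells with a heat shock transcript at 1000 UMIs ran the other way, with 4.87%, 4.10% and 3.87%. At full depth it was 7.86%, 9.64% and 9.97%, in the order of the level, at median depths of 3279, 2928 and 3360 UMIs. The order of the shares thus turned with the depth used, and none is read from them.

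The UMIs were held by few cells. The top 1% of neutrophil-like cells held 35.3% of heat shock UMIs in control DC wounds (5 cells), 68.3% in Ndrg2-KO DC wounds (29 cells) and 78.2% in blank hydrogel wounds (16 cells). The highest single cell held 6, 130.0 and 145 UMIs. In macrophage-like cells the top 1% held 9.19% to 12.8%. The median UMI count of the top neutrophil-like cells, 2551 to 2767, was below that of the class in each wound.

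Of the wound classes with at least 50 cells in each wound, T cell-like cells had the lowest immediate early sum, at 1565, 1434 and 2373 CPM in control DC, Ndrg2-KO DC and blank hydrogel wounds. Ier3 was higher by 2-fold or more in Ndrg2-KO DC than in control DC wounds, with 620 against 56 UMIs (7.47-fold), beside 4.34% of 4498 genes. Fos, Fosb, Egr1, Hspa1a and Hspa1b were lower by 2-fold or more, from 2.01-fold for Egr1 to 3.02-fold for Hspa1a, beside 1.24% of genes. These 5 genes rested on 64 to 261 UMIs per wound, and 1 cell held 30.8% of the heat shock UMIs of the class in control DC wounds. The doublet score of that cell was 0.132 against a class median of 0.0116, and the cells with the most heat shock UMIs in Ndrg2-KO DC and blank hydrogel wounds had 0.160 against 0.0164 and 0.236 against 0.0268. Doublets were kept, and their part in these values was not tested.

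In blank against control DC wounds, Ier3 (4.66-fold), Jun (2.35-fold) and Atf3 (2.29-fold) were higher by 2-fold or more in T cell-like cells. They rested on 198 against 56, 75 against 42 and 33 against 19 UMIs. Atf3 was below the minimum count in each of these wounds and reached it only over both together. Jun was below it in control DC wounds. No count of members is therefore set beside the share of higher genes, 3.67% of 3565. Hspa1a and Hspa1b were 1.999-fold and 1.997-fold lower there, just short of the threshold. Fos, Fosb, Egr1 and Junb were lower by 2-fold or more in Ndrg2-KO DC than in blank hydrogel wounds, from 2.16-fold for Junb to 3.14-fold for Fos, beside 2.14% of 4249 genes. A transcript of another cell type was set beside Ier3. S100a8, a neutrophil transcript, was found in 1.66%, 7.20% and 5.60% of fibroblast-like cells from control DC, Ndrg2-KO DC and blank hydrogel wounds at 1000 UMIs. Its level there was 45.6, 194 and 277 CPM, highest in blank hydrogel wounds, whereas Ier3 in T cell-like cells was highest in Ndrg2-KO DC wounds, at 65.6, 490.5 and 306 CPM. The share of cells followed the order of Ier3 and the level did not, and the part of free RNA in the Ier3 result was not tested.

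Monocyte-like cells also had more heat shock transcripts in blank than in control DC wounds. Hspa1b had 41.3 CPM in control DC, 65.3 CPM in Ndrg2-KO DC and 94.9 CPM in blank hydrogel wounds, and was the 1 member higher by 2-fold or more between blank and control DC wounds (2.30-fold, 384 against 78 UMIs), beside 2.41% of 6835 genes. The log2 ratio of the heat shock sum was 0.63 (0.44 to 0.83) there, opposite to macrophage-like cells. No member was past 2-fold between Ndrg2-KO DC and control DC wounds, beside 2.84% of 6617 genes, or between Ndrg2-KO DC and blank hydrogel wounds, beside 2.76% of 7399 genes.

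Mast cell-like cells were lowest in Ndrg2-KO DC wounds for Fos and the heat shock genes. Ier3 was higher by 2-fold or more in Ndrg2-KO DC than in control DC wounds (2.35-fold), beside 8.31% of 3055 genes, and Fos (2.81-fold), Hspa1a (2.26-fold) and Egr1 (2.23-fold) were lower, beside 7.79%. Fos, Hspa1a and Hspa1b were lower in Ndrg2-KO DC than in blank hydrogel wounds, by 2.13-fold, 2.38-fold and 2.73-fold, beside 4.27% of 3092 genes. None was past 2-fold between blank and control DC wounds, beside 10.7% of 3216 genes, and the heat shock sum was 1046, 498 and 1256 CPM in control DC, Ndrg2-KO DC and blank hydrogel wounds. These values come from 89, 158 and 116 cells.

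The cluster left unnamed, led by Mmp12, Ppbp and Arg1, had 155, 697 and 366 cells in control DC, Ndrg2-KO DC and blank hydrogel wounds. Its heat shock sum was highest with Ndrg2-KO DCs, at 352, 466 and 174 CPM. Ier3 (3424 against 1392 CPM, 2.46-fold) and Ier2 (2.39-fold) were higher by 2-fold or more in Ndrg2-KO DC than in control DC wounds, beside 5.24% of 8146 genes, and Fosb was lower (2.04-fold), beside 2.77%. Hspa1a was lower in blank than in control DC wounds (2.11-fold), beside 0.985% of 7715 genes.

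Between Ndrg2-KO DC and blank hydrogel wounds 5 members were higher by 2-fold or more in this cluster, beside 2.95% of 8677 genes. These were Hspa1b (3.03-fold), Egr1 (2.98-fold), Hspa1a (2.48-fold), Ier2 (2.33-fold) and Ier3 (2.24-fold). The class comparisons share libraries in the same way as those over all cells.

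**Figure D5:**
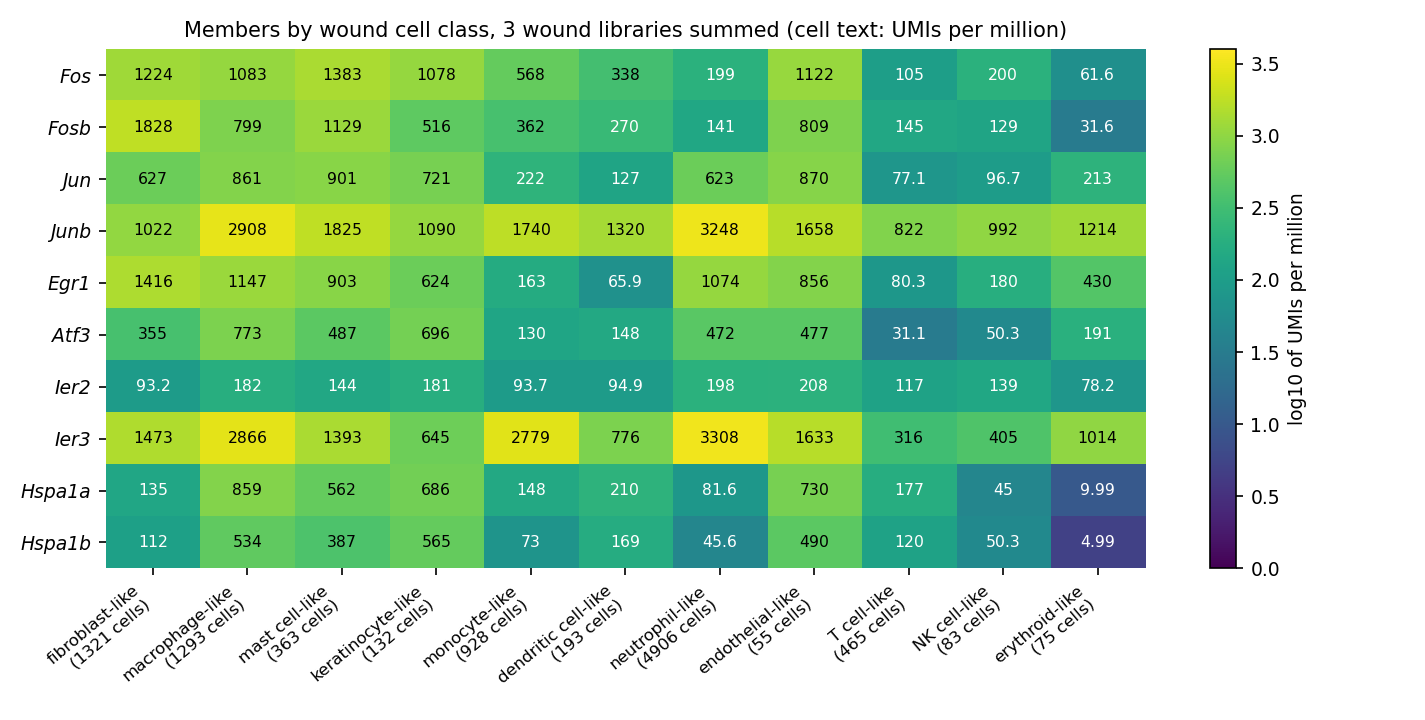
Level of each of the 10 genes in the wound cell classes, pooled over the 3 wounds, in log10 CPM. Pooled levels weigh the wounds by their cells, so their order need not hold within a wound. Fosb stands out in fibroblast-like cells (1828 CPM), as it does in each wound, and both heat shock genes are lowest in erythroid-like cells.

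Each gene had its own distribution over the wound cell classes, here compared within each wound over the classes with at least 50 cells in all 3 wounds. These were fibroblast-like, macrophage-like, neutrophil-like, monocyte-like, mast cell-like and T cell-like cells and the unnamed cluster led by Mmp12. Fosb was highest in fibroblast-like cells in each wound and stood at 120 to 152 CPM in neutrophil-like cells. Fos was highest in mast cell-like cells in control DC (1943 CPM) and blank hydrogel wounds (1469 CPM) and stood at 1179 CPM in fibroblast-like and 1167 CPM in macrophage-like cells in Ndrg2-KO DC wounds, an order that turned without the fibroblast-like cluster of 1 wound (992 CPM), and was at 197 to 199.6 CPM in neutrophil-like cells. Fos was lower still in T cell-like cells, at 122, 56.2 and 176 CPM in control DC, Ndrg2-KO DC and blank hydrogel wounds.

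Junb was highest in macrophage-like cells in control DC (3107 CPM) and blank hydrogel wounds (3159.9 CPM) and in neutrophil-like cells in Ndrg2-KO DC wounds (3361 CPM). Ier3 was highest in a different class in each wound, in macrophage-like cells with control DCs (2839 CPM), in the unnamed cluster with Ndrg2-KO DCs (3424 CPM) and in neutrophil-like cells with blank hydrogels (3601 CPM). Egr1 was highest in fibroblast-like cells in control DC and blank hydrogel wounds and in macrophage-like cells (1229.7 CPM) in Ndrg2-KO DC wounds. Atf3 was highest in macrophage-like cells in each wound, at 756, 820.5 and 707 CPM in control DC, Ndrg2-KO DC and blank hydrogel wounds. T cell-like cells were lowest for Fos, Jun, Egr1 and Atf3 in each wound, Atf3 at 22.3, 26.9 and 51.0 CPM.

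The heat shock sum was highest in macrophage-like cells in control DC (1952 CPM) and Ndrg2-KO DC wounds (1405 CPM) and in mast cell-like cells in blank hydrogel wounds (1256 CPM against 767 CPM in macrophage-like cells). Classes with fewer cells stood higher still in some wounds, with 2727 CPM in 24 keratinocyte-like cells of control DC wounds and 1639 CPM in 18 endothelial-like cells of Ndrg2-KO DC wounds. The keratinocyte-like cluster also passed 6 T cell markers. At a resolution of 1.0, a keratinocyte-like cluster held 12 cells of control DC wounds and a T cell-like cluster led by histone genes held 11. The 2727 CPM are therefore not read as the level of keratinocytes alone. In erythroid-like cells, red cell precursors, 2 of 64 cells of the Ndrg2-KO DC wounds held a heat shock transcript at 1000 UMIs (3.13%, Clopper-Pearson interval 0.381% to 10.8%), at a median depth of 7040.0 UMIs. This class was picked for its low level and its interval is wide, so it gives no firm background for the 3.87% to 4.87% of neutrophil-like cells, which had median depths of 2928 to 3360 UMIs. Col1a1, a fibroblast transcript, was found in 9.42% to 14.4% of neutrophil-like cells.

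Cells with several of these transcripts at once made up a larger share of the wound than of the culture libraries. At 1000 UMIs, 3 or more of the 10 genes were found in 6.91% of untreated, 12.2% of VD3 stimulated and 0.996% of Ndrg2-KO DCs. The same share was 66.6%, 65.5% and 63.1% in control DC, Ndrg2-KO DC and blank hydrogel wounds. Hspa1a and Hspa1b were found together in 145, 228 and 102 cells of the 3 wounds, where independence within each library would give 39.6, 43.5 and 18.2 cells. In the cultures no cell held both, where independence would give 0.000834, 0.00636 and 0.0197 cells of the untreated, VD3 stimulated and Ndrg2-KO DCs. The transcripts were thus too scarce there for a comparison. Different cell types within a library are enough to raise such a ratio, and this was not tested.

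The share of UMIs in the richest cells was taken at 1000 UMIs per cell, where it also rises as a transcript becomes scarcer. The 10% of cells with the most immediate early UMIs held 26.7% to 28.7% of them in the wounds and 40.6% to 46.2% in the cultures. For the heat shock genes the top 10% of wound cells held 83.5% to 94.8%, of 1260 to 2130 UMIs. The groups of genes differ in abundance, so these shares are not compared between them.

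Across the 25 culture groups of cells (a library and a cluster with at least 50 cells), Fos and Egr1 had the most similar levels, with a Pearson correlation of 0.99 of log2(CPM + 1), and Atf3 and Ier2 the least, with -0.64. Across the 31 wound groups the closest pairs were Hspa1a and Hspa1b (0.97), Fos and Fosb (0.94) and Jun and Atf3 (0.93). Ier3 with Hspa1b gave -0.10. Groups of 1 library share its depth and handling, so these values describe the data and carry no test.

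The genes with profiles most like the sum of the 8 immediate early genes over all 56 groups, among 5246 genes, were Nfkbiz (0.94), Trib1 (0.94), Socs3 (0.94), Mafk (0.93), Zfp36 (0.92), AC127341.3 (0.91), Phlda1 (0.91), Zfp131 (0.91), Nr4a1 (0.91) and Cxcl2 (0.91). Within the cultures alone these correlations ran from 0.54 to 0.84, and within the wounds from 0.56 to 0.92. Nr4a1 (0.94), Gm42418 (0.93), Ccl8 (0.93), Nr4a2 (0.92) and Emp1 (0.91) were closest to the heat shock sum. Within the wounds alone these were 0.54, 0.14, 0.75, 0.78 and 0.68 in the same order. Within the cultures Nr4a1 was at -0.07, Gm42418 at -0.06, Nr4a2 at 0.16 and Emp1 at 0.53, and Ccl8 had no value. Each value within wounds or cultures was thus below that over all groups, which also span the gap between wounds and cultures. The part of that gap was not tested.

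The wider pathways were read from lists of other genes. Of 34 further immediate early genes tested in the cultures, 1 was higher and 5 were lower by 2-fold or more in VD3 stimulated than in untreated cultures, their median log2 ratio being -0.23 beside -0.08 for all genes tested, of which 11.6% were past 2-fold. Zfp36, which destabilises inflammatory mRNAs, was the 1 that was higher, with 273 against 133 CPM, and Klf4 (23.2 against 62.4 CPM), Sgk1, Ier5l and Maff were among the lower ones. The members' direction was thus not that of the wider list.

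In Ndrg2-KO against untreated DCs 3 of these 34 genes were higher, no more than the 10.2% of all genes, and 6 were lower, beside 9.28%, with a median of -0.39. Sgk1, a kinase induced by stress and steroid hormones, had 194 against 31.2 CPM, and Rhob and Ier5l were also higher. Nfkbiz (1.78 against 9.16 CPM), Dusp2, Egr3 and Gadd45b (44.7 against 138 CPM) were lower. Against VD3 stimulated DCs, 6 were higher, beside 13.0% of all genes, and 11 were lower, beside 9.21%.

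Of the 18 further heat shock genes tested in the cultures, 1 was lower in VD3 stimulated than in untreated DCs (Hspd1, a mitochondrial chaperone, 106 against 215 CPM), beside 11.6% of all genes past 2-fold in either direction, and none was past 2-fold in Ndrg2-KO against untreated DCs. Bag3, a co-chaperone of HSP70, was higher in Ndrg2-KO than in VD3 stimulated DCs, with 28.7 against 11.4 CPM, the 1 of these 18 that was higher, beside 13.0% of all genes. Of 7 genes of the integrated stress response, which slows translation under amino acid shortage or unfolded protein, Chac1, Asns and Trib3 stood below the untreated culture by 2-fold or more in the Ndrg2-KO culture, Asns with 3.43 against 20.8 CPM, beside 9.28% of all genes. Their direction was opposite to that of Atf3, a gene of the same response.

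In the wounds, Gadd45b (523 against 240 CPM), Nfkbia (2315 against 1080 CPM) and Dusp2 were higher and Myc (63.8 against 158 CPM) lower in Ndrg2-KO DC than in control DC wounds, among 35 further immediate early genes, beside 10.6% of all genes past 2-fold in either direction. Dusp2 was also higher and Myc also lower in blank than in control DC wounds, and the 2 comparisons share the control DC library. Of the 20 further heat shock genes, Hspa4l was higher and Hspb8 lower in Ndrg2-KO DC than in control DC wounds, beside the same 10.6%. None was past 2-fold in the other wound comparisons. There, 3.89% of all genes were lower in blank than in control DC wounds. In either direction 3.76% were past 2-fold between Ndrg2-KO DC and blank hydrogel wounds. Below 0 were 18 of the 20 genes in Ndrg2-KO DC and 17 in blank against control DC wounds. Their medians were -0.29 and -0.24, beside -0.15 and -0.04 over all genes. Within neutrophil-like cells Hsp90aa1 had 636 CPM in blank against 294 CPM in control DC wounds, from 3738 and 478 UMIs. Cacybp (49 against 4 UMIs), Hspd1 (61 against 6 UMIs) and Hspe1 (58 against 6 UMIs) reached the minimum of 50 UMIs almost only through the blank hydrogel library, so no count over the list is given there. Dnajb1, the partner of HSP70 that is induced with it, had 166, 131 and 105 CPM in control DC, Ndrg2-KO DC and blank hydrogel wounds, in the order of Hspa1a, and 24.9 to 28.4 CPM in the cultures. The list was divided on this order. Hspb1 kept it, with 126, 91.9 and 71.0 CPM, and Bag3, with 107, 62.0 and 67.0 CPM, did not.

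The constitutive relative Hspa8 was past 2-fold in no comparison of libraries, with 1223 to 1573 CPM in the cultures. It stood at 1672, 1325 and 1363 CPM in control DC, Ndrg2-KO DC and blank hydrogel wounds. Like Hspa1a, it was thus highest with control DCs. Hsf1, the factor that switches the heat shock genes on by a change of its protein, had 10.8 to 12.5 CPM in the cultures and 9.14 to 13.0 CPM in the wounds. No gene of 13 upstream kinases and factors was past 2-fold in 5 of the 6 comparisons, and in Ndrg2-KO against VD3 stimulated DCs Elk3 and Mapk3 were higher, beside 13.0% of all genes, and Hsf2 was lower, beside 9.21%. Of the 9 genes held to be steady, Gapdh was the 1 past 2-fold, with 1218 against 598 CPM in Ndrg2-KO DC against control DC wounds.

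Measures of cell quality were set beside the members. In control DC wounds the heat shock sum was 485 CPM in cells with under 2% mitochondrial UMIs, 754 CPM from 2% to 5% and 1156 CPM from 5% to 10%. Ndrg2-KO DC and blank hydrogel wounds gave the same order, with 324, 623 and 1005 CPM and with 220.0, 395 and 587 CPM. Within macrophage-like cells the order was reversed in 2 of the 3 wounds, with 2505 CPM under 2% and 1745 CPM from 2% to 5% in control DC wounds and 1610 and 1358 CPM in Ndrg2-KO DC wounds. It was kept in blank hydrogel wounds, with 681 and 796 CPM. The lower level in blank than in control DC wounds was found in both bins.

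The immediate early sum changed less with mitochondrial share, from 7700 to 8985 CPM over the 3 bins in control DC wounds and from 447 to 497 CPM in Ndrg2-KO DCs. Barcodes left out for 10% or more mitochondrial UMIs had lower levels in the wounds than the cells kept, with 2633, 3771 and 3099 CPM. Wound barcodes with under 300 genes had 78.9 to 153 CPM. The cells with the fewest UMIs had higher sums than those with the most in each of the 6 libraries, for example 2042 CPM in the shallowest and 1230.0 CPM in the deepest of 3 equal groups of VD3 stimulated DCs.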

How the data were processed

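The 6 libraries were deposited as raw UMI counts per gene and barcode, made by Cell Ranger (3.1.0 in the headers of the culture files, 6.0.0 in those of the wound files). The labels list mm9 as the genome build, whereas the methods give mm10. The authors analysed them with Seurat 3.1.1. Barcodes were dropped where they had fewer than 300 genes, 100000 or more UMIs, or a mitochondrial share of 10% or more, which left 7257, 8825 and 7969 cells in cultures and 1948, 5681 and 3403 in wounds. Counts were summed per library and class and given as CPM. Cultures and wounds were clustered separately in R 4.3.3 with Seurat 5.3.0 (scaled to 10000, 2000 variable genes without immediate early and heat shock genes, 15 components, resolution 0.5) and clusters named from markers. Doublets were kept, since Scrublet marked too few cells (0.873% at most) to have worked. Shares were taken after thinning to 1000 UMIs. Tables were made with Python 3.11.15, pandas 2.3.3, NumPy 2.4.6 and SciPy 1.17.1, and the steps were tested on simulated data. Intervals cover counting error only. Genes outside the 10 members were named where they were past 2-fold in a listed pathway (up to 4 in each direction), or were the 10 genes most like the immediate early sum and the 5 most like the heat shock sum by Pearson correlation. Dnajb1, Hspb1, Hspa8, Hsf1 and the wound levels of Bag3 were named after their values were seen. The members and lists were chosen with earlier results of these data known. Without replicates no test was run.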

Additional observations from a re-analysis of the deposited data

Results flagged for a closer look

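The summed level of the 2 heat shock genes differed in opposite directions in a pair of wound cell classes under the same comparison. Between blank and control DC wounds their summed log2 ratio was -1.35 in macrophage-like cells, from 1952 to 767 CPM, and 2.69 in neutrophil-like cells, from 31.3 to 203 CPM. With 1 library per condition the difference between the classes was not tested. The neutrophil-like value rests on 51 UMIs in control DC wounds and on 1191 UMIs in blank hydrogel wounds, of which 16 cells held 78.2%. Hspa1a and Hspa1b had 28 and 23 UMIs there in control DC wounds, below the minimum count, and passed it through the blank hydrogel wounds. The higher level in blank hydrogel wounds describes these libraries, and no firm direction is read from it. The share of neutrophil-like cells with a heat shock transcript was 4.87% in control DC and 3.87% in blank hydrogel wounds at 1000 UMIs. At full depth it was 7.86% and 9.97%, so no direction is read for the share of cells.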

How the results depend on the processing

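The number of members past 2-fold in VD3 stimulated against untreated DCs was 0, and 2 in cells with under 5% mitochondrial UMIs, 1 with median-ratio size factors, 1 as a mean over cells and 1 with totals without mitochondrial and ribosomal protein genes. In Ndrg2-KO against untreated DCs it was 8, and 5 in cells with under 5% mitochondrial UMIs, 5 without mitochondrial and ribosomal protein genes and 5 without neutrophil-like cells. In Ndrg2-KO DC against control DC wounds it was 0, and 1 as a mean over cells. In blank against control DC wounds it was 2, and 1 with a minimum of 300 UMIs, 0 over all deposited barcodes, 1 with median-ratio size factors and 1 as a mean over cells. In macrophage-like cells, Ndrg2-KO DC against blank wounds, it was 0, and 1 at resolution 1.0 and 1 without the highest 6% of doublet scores. The cause was not tested. Totals without Gm42418, the removal of neutrophil-like cells and that of the fibroblast-like cluster of 1 wound were chosen after seeing the data. Of 60 counts over whole libraries 48 and of 48 within classes 46 stayed within 1.5 times the main count. Of 540 log2 ratios of single members 268 moved beyond their counting interval, as did 172 of 180 shares of cells. Between 54 and 60 of the 60 log2 ratios kept their sign under each alternative, and between 15 and 18 of the 18 past 2-fold stayed past it. No log2 ratio past 2-fold changed sign. No paired analysis was possible because each condition had 1 library.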
